A study of Mus musculus with 10 samples.

Results

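Elongating RNA polymerase II was not found only on annotated genes in cultured mouse muscle stem cells (MuSCs). Of the 51322 peaks of Pol II phosphorylated at serine 2 (Pol II S2P), 6772 lay on an autosome, were listed with no gene in the deposited table and overlapped a peak of H4K20me1, monomethylated lysine 20 of histone H4, by at least 1 base. These 6772 intergenic peaks inside H4K20me1 were chosen by overlap and gene column and not by any difference between genotypes. Being called as a peak does depend on level, and both peak sets were joined over the 4 libraries of an antibody, so a peak could enter through the signal of a single genotype. They made up 50.4% of the 13442 autosomal peaks with no gene and sat in 3406 of the 41008 autosomal H4K20me1 peaks. The other 6670 peaks with no gene overlapped no H4K20me1 peak and served as the closest comparison, together with the 25854 gene-listed peaks inside H4K20me1.

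The cells were purified as satellite cells, the stem cells of skeletal muscle, and grown in culture, from mice on a C57BL/6 background. Control cells (Ctrl) carried the genotype Pax7CreERT/Suv4-20h1WT, and mutant cells (Kmt5b sKO) carried Pax7CreERT/Suv4-20h1KO, so both genotypes shared the tamoxifen-inducible Cre driven by Pax7, and the deletion depended on that Cre in Pax7-expressing cells. CUT&RUN, in which an antibody guides a nuclease to its target in permeabilised cells, was done with 2 libraries for each genotype and antibody. The study used young adult mice of both sexes. The 2 libraries of a genotype are described as biological replicates, and the 2 IgG libraries were not analysed here. In such bulk libraries a change in some cells and a change in every cell cannot be told apart.

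Pol II gains the serine 2 mark as it moves into productive elongation, and the mark is known to be high towards and past the 3′ end of a gene, where the polymerase runs on beyond the polyadenylation site before it terminates. Enhancers, too, are transcribed into short unstable RNAs, so a peak with no gene can mark run-on transcription, an enhancer or a transcript that the annotation lacks. H4K20me1 is placed by KMT5A, often over the bodies of transcribed genes, and is the substrate from which KMT5B, formerly SUV4-20H1, and its relative KMT5C make the di- and trimethylated forms.

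The score is a whole number per peak and library that stands for coverage normalised to spike-in DNA, summed over the peak and not divided by its length. The summed Pol II S2P score was 3257665 to 4243685 (Ctrl) versus 3435908 to 4885638 (sKO), so the genotypes overlapped, whereas that of H4K20me1 was 15218720 to 20432644 (Ctrl) versus 32194136 to 35046570 (sKO). The 2 peaks of Pol II S2P listed with Kmt5b summed to 24 and 62 in Ctrl versus 48 and 22 in sKO, which is too low to check the deletion. Of 9 markers of satellite cells and myoblasts, 6 had a Pol II S2P peak, with Des at 1987 to 3212 and Pax7 at 274 to 356 over the 4 libraries. Myod1 alone among the 6 did not overlap between genotypes, at 1329 and 1110 in Ctrl versus 887 and 649 in sKO, and no peak was listed with Myf5, Cdh15 or Msc. Of 4 markers of differentiated muscle, 2 had a peak, and Acta1 and Myh4 had none. Myog summed to 59 and 92 in Ctrl versus 85 and 53 in sKO, and Ckm to 123 and 163 in Ctrl versus 276 and 173 in sKO. Of 12 markers of endothelium, haematopoietic cells, fibro-adipogenic cells and glia, 3 had a peak, and Cd68 at 840 to 1308 was the highest of them. Ptprc, Itgam, Cdh5, Kdr and Pdgfra had none.

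Before the values, the DNA of 7 of these peaks is shown. They are 4 of the 5 with the largest called rise in sKO, and 3 of the 7 called lower once library totals were set equal. Each line gives 300 bases centred on the peak, from the plus strand of the RefSeq sequence of GRCm38, with the nearest protein-coding gene in brackets. Capitals mark matches on either strand to 5 short motifs of factors of enhancers and muscle: AP-1 (TGANTCA), E-box (CAGCTG), KLF (CCACACCC), TEAD (GGAATG) and MEF2 (CTA, any 4 bases, TAG). The 4 that rose come first.
chr6:117938052-117938351 (Fxyd4): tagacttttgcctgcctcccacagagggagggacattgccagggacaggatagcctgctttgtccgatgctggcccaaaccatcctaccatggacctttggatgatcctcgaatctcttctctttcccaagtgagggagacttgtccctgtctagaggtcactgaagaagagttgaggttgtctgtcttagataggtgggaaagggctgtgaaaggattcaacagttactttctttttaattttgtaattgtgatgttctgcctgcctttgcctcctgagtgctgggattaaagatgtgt
chr7:128259732-128260031 (Tgfb1i1): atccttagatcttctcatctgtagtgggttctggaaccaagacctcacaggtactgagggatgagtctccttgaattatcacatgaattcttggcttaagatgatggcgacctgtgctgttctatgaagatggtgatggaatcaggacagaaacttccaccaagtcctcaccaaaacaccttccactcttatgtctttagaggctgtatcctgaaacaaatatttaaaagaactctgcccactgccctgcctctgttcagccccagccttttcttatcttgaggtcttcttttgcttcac
chr16:17061080-17061379 (Ypel1): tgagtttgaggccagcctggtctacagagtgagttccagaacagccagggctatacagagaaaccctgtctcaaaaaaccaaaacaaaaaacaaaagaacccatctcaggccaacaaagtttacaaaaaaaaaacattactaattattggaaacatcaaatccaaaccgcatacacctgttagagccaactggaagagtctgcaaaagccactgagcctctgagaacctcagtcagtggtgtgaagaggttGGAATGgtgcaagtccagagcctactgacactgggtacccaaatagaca
chr2:144236529-144236828 (Snx5): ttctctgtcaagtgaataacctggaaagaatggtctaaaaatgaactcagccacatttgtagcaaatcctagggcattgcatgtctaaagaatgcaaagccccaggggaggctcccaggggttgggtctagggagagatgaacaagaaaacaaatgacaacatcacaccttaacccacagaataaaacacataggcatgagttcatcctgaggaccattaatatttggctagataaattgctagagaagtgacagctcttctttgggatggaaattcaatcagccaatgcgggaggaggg
The 3 that were lower follow.
chr13:21749067-21749366 (Hist1h4k): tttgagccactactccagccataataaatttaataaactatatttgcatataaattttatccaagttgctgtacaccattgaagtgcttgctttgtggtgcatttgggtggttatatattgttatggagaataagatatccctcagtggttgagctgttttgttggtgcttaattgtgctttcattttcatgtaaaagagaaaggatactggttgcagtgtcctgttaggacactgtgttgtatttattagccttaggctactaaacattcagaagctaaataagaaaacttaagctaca
chr10:52029411-52029710 (Vgll2): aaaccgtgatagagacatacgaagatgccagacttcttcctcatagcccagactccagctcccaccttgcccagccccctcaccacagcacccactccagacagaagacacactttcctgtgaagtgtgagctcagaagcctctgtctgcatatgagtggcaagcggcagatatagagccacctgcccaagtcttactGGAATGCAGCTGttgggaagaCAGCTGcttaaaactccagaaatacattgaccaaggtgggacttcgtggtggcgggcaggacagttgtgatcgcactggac
chr8:84813053-84813352 (Dand5): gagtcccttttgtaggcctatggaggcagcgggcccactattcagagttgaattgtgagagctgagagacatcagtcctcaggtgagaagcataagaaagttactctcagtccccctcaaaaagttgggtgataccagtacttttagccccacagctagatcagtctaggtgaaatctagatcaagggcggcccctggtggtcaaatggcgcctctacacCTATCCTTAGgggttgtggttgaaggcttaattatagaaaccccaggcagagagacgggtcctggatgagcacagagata
In the 4 windows that rose, 1 match was found, a TEAD match near Ypel1. The Vgll2 window held 1 TEAD match and 2 E-boxes, the Dand5 window held 1 MEF2 match and the Hist1h4k window none. The marked matches did not overlap one another.

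Most of the intergenic peaks inside H4K20me1 lay just past the end of a gene. By the nearest protein-coding gene of GENCODE M21, 4307 (63.6%) lay within 10 kb past its 3′ end, 1422 (21.0%) within 10 kb before its start and 1043 (15.4%) farther away than that. Of the 6670 intergenic peaks outside H4K20me1, 1891 (28.4%) lay past a 3′ end, 1368 (20.5%) before a start and 3410 (51.1%) farther away. When any protein-coding gene counted and not only the nearest, 5024 (74.2%) of the peaks inside and 2228 (33.4%) of those outside lay within 10 kb past a 3′ end. The median distance to the nearest protein-coding gene was 2740.5 bases inside H4K20me1 and 10390.0 bases outside. In GENCODE M21, 37 of the 6772 overlapped a gene of any type, and 927 (13.7%) overlapped a gene or pseudogene of RefSeq, so intergenic here means listed with no gene in the deposited table.

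The peaks were short and clustered. Their median length was 355.0 bases, close to the 366.5 bases of intergenic peaks outside, but 565 (8.34%) were 1000 bases or longer against 296 (4.44%) outside. Of the 6772, 6371 lay wholly inside H4K20me1, and the smallest overlap was 11 bases. Another member lay within 5000 bases of 4533 of them (66.9%). A single member was held by 1996 of the 3406 H4K20me1 peaks, and 22 were held by the busiest one. Peaks that share an H4K20me1 peak or a gene end are not independent of each other.

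Sequence content differed with position more than with H4K20me1. The median GC content was 47.0% inside H4K20me1 and 47.1% outside, and 45.9% inside against 45.8% outside for peaks past a 3′ end. The AP-1 motif was in the central 300 bases of 16.4% of the members and 30.4% of the intergenic peaks outside. Within the same position the gap narrowed, to 13.2% against 19.9% past a 3′ end and 30.1% against 38.8% far from genes. E-boxes followed the same order, at 18.4% past a 3′ end, 23.8% before a start and 34.2% far from genes inside H4K20me1, and 37.2% far from genes outside. The TEAD motif was in 17.8% of members and 23.4% of peaks outside. KLF at 2.94% and 3.43%, and MEF2 at 6.36% and 6.07%, were close in the 2 sets. Over all autosomal Pol II S2P peaks the shares were 19.7% for AP-1, 25.2% for the E-box, 3.33% for KLF, 18.7% for TEAD and 5.82% for MEF2, and over 32851 RefSeq promoters of the same length they were 7.81%, 16.3%, 3.56%, 14.7% and 3.69%. These are matches of letters and not binding sites.

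These peaks held a larger share of the autosomal Pol II S2P score in called peaks in both Kmt5b sKO libraries than in both Ctrl libraries. The 6772 peaks summed to 376383 and 512966 (Ctrl) versus 656277 and 447171 (sKO), which overlap. As a share of each library's autosomal score, free of any scaling between libraries, they held 11.7% and 12.2% in Ctrl versus 13.6% and 13.1% in sKO. Each sKO library exceeded each Ctrl library, with means of 11.9% ± 0.380 and 13.4% ± 0.298 (SD, n = 2 each) and a difference of 1.42 percentage points. The exact two-sided permutation test gave p = 0.333, the smallest value that 2 libraries against 2 allow, so no difference of this kind can pass 0.05 in this design. Chromosome by chromosome, the share in both sKO libraries exceeded that in both Ctrl libraries on 19 of 19 autosomes. The autosomes are parts of the same libraries and are not independent comparisons.

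The other classes of peaks gave these values. Intergenic peaks outside H4K20me1 held 11.3% and 11.2% in Ctrl versus 11.5% and 11.5% in sKO, a difference of 0.223 percentage points. Gene-listed peaks inside H4K20me1 held 49.9% and 51.1% in Ctrl versus 51.1% and 50.8% in sKO, which overlap. Gene-listed peaks outside H4K20me1 went from 27.1% and 25.5% to 23.9% and 24.6%, below both Ctrl libraries.

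**Figure D1:**
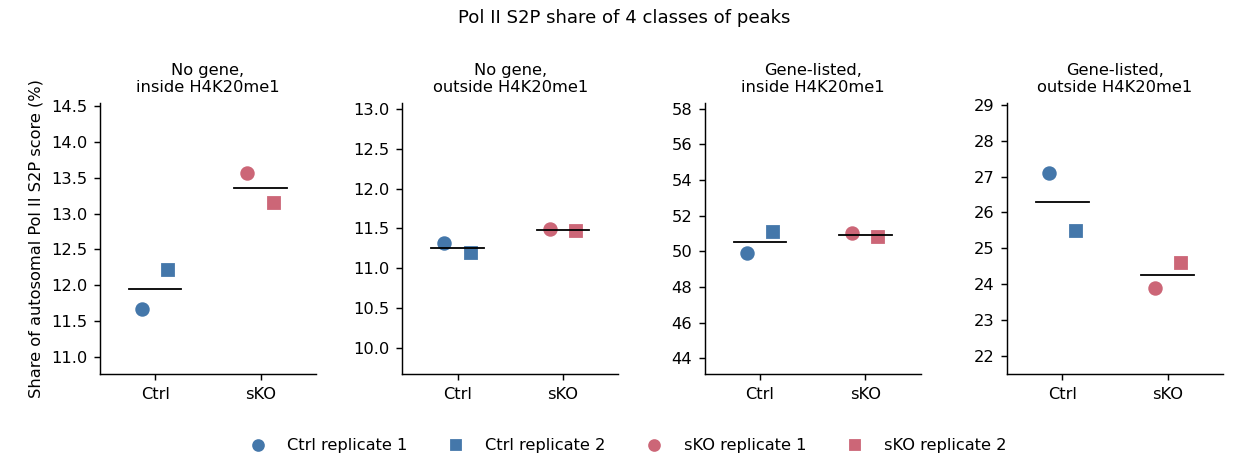
Share of the autosomal Pol II S2P score (%) in each library for 4 classes of peaks; points are libraries, bars are means of 2, and every axis spans 15% on either side of the mean of its class and does not start at 0. The intergenic peaks inside H4K20me1 go from 11.7% and 12.2% to 13.6% and 13.1%, while gene-listed peaks inside H4K20me1 overlap between genotypes.

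For single peaks, 2813 of the 6772 had a mean score over 50 across the 4 libraries and were tested, and these held 76.7% of the members' score. A peak could pass this filter through the signal of a single genotype. On log2(score + 1) the median of the tested members was 6.13 and 6.55 in Ctrl versus 6.91 and 6.36 in sKO, so the deposited levels overlapped (exact two-sided permutation p = 0.667). Their median log2 fold change was 0.29, against 0.14 for intergenic peaks outside, 0.12 for gene-listed peaks inside, 0.02 for gene-listed peaks outside and 0.11 over all 22353 peaks tested. Leaving out replicate 1 lowered the 0.29 to 0.064 (Ctrl) or 0.032 (sKO), and leaving out replicate 2 raised it to 0.50 (Ctrl) or 0.54 (sKO). With limma, 6 of the 2813 rose and 0 fell by the limits used here, an adjusted p below 0.1 with a log2 change beyond 0.5 or -0.5, where 0.0447% of all tested peaks were called higher and 0.00447% lower. Before adjustment, 228 members had a limma p below 0.05 with a rise and 3 with a fall, against 740 and 34 of all 22353 peaks tested. Without Ctrl replicate 1 or without sKO replicate 1 the count of 6 went to 0, and without sKO replicate 2 it went to 46.

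The replicates of a genotype differed in their totals, so each library was also scaled to the same autosomal total. The standard error of the 10 highest-scoring members then fell from between 0.413 and 0.434 to between 0.122 and 0.133 on the log2 scale. On equal totals, which lowered the median log2 fold change of all peaks from 0.11 to -0.03, 178 of 2792 tested members (6.38%) rose and 7 (0.251%) fell, where limma called 2.49% of all tested peaks higher and 1.2% lower. Outside H4K20me1 the same test called 108 of 2931 intergenic peaks higher and 37 lower. Inside it, 214 of 10758 gene-listed peaks were called higher and 104 lower. The count of 178 went to 53 without Ctrl replicate 1 and to 42 without sKO replicate 1. Each sKO library exceeded each Ctrl library for 959 members (34.3%, against 20.5% of all tested peaks) and was below each for 358 (12.8%, against 24.0%). The 178 sat in 143 H4K20me1 peaks on 19 chromosomes.

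**Figure D2:**
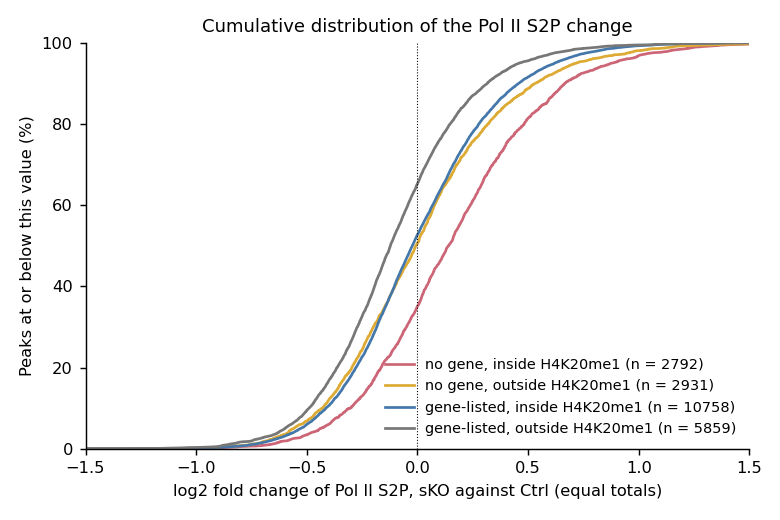
Cumulative distribution of the limma log2 fold change of Pol II S2P (sKO against Ctrl, library totals set equal) in 4 classes of tested peaks. The curve of intergenic peaks inside H4K20me1 lies to the right, with a median of 0.14, against -0.01 for intergenic peaks outside, -0.02 for gene-listed peaks inside and -0.12 for gene-listed peaks outside.

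The difference between classes was then tested itself. In each library the median change of the members from the Ctrl mean, less that of intergenic peaks outside H4K20me1, was -0.06 and 0.06 in Ctrl versus 0.19 and 0.13 in sKO, on the log2 scale. The sKO libraries exceeded the Ctrl libraries by 0.16 (pooled SD 0.067, n = 2 each, exact two-sided permutation p = 0.333, the smallest possible), and by 0.092 without Ctrl replicate 1. Against gene-listed peaks inside H4K20me1 the values were -0.03 and 0.03 in Ctrl versus 0.17 and 0.14 in sKO, a difference of 0.16 (pooled SD 0.032, exact permutation p = 0.333). Within classes of GC content, level and length the difference from intergenic peaks outside ranged from 0.11 to 0.25. It was 0.16 below 45% GC, 0.15 from 45% to 50% and 0.11 from 50% up, and 0.25 for peaks with a mean score over 200.

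The difference was smaller among peaks in the same position relative to genes. Members past a 3′ end had a median log2 fold change of 0.19 on equal totals, members before a start 0.06 and members far from genes 0.02. The intergenic peaks outside H4K20me1 had 0.15, -0.06 and -0.06 in the same 3 places. Among peaks past a 3′ end, inside and outside differed by 0.02 (Ctrl -0.02 and 0.02, sKO 0.02 and 0.03, exact permutation p = 0.667), which is within the spread of the libraries. Before a start they differed by 0.13 and far from genes by 0.08, with the sKO libraries above both Ctrl libraries in each (exact permutation p = 0.333 for both, the smallest possible). With any protein-coding gene counted, inside and outside differed by 0.04 within 10 kb past a 3′ end (Ctrl -0.03 and 0.03, sKO 0.04 and 0.05). They differed by 0.07 among the rest (Ctrl -0.04 and 0.04, sKO 0.08 and 0.06, exact permutation p = 0.333 for both). In the share of the library total, members past a 3′ end went from 7.81% and 8.28% in Ctrl to 9.40% and 9.03% in sKO. Members before a start went from 2.17% and 2.23% to 2.37% and 2.32%, and members far from genes from 1.69% and 1.70% to 1.80% and 1.79%. Members past a 3′ end thus carried 1.17 of the 1.42 percentage points.

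The change was larger farther past the gene end. On equal totals the median log2 fold change of members was 0.10 within 1 kb, 0.11 from 1 to 2 kb, 0.22 from 2 to 5 kb and 0.39 from 5 to 10 kb past the 3′ end of the nearest protein-coding gene. The share called higher by limma on equal totals went from 15 of 441 (3.40%) within 1 kb to 57 of 315 (18.1%) from 5 to 10 kb, beside 2.49% of all tested peaks. Outside H4K20me1 it went from 3 of 121 (2.48%) to 38 of 268 (14.2%). Without any filter, the 799 members from 5 to 10 kb held 1.01% and 1.16% of the library total in Ctrl versus 1.51% and 1.33% in sKO, a ratio of 1.31. The 1053 members within 1 kb held 2.46% and 2.43% in Ctrl versus 2.60% and 2.59% in sKO, a ratio of 1.06. The change from 5 to 10 kb less that within 1 kb was -0.10 and 0.10 in Ctrl versus 0.37 and 0.19 in sKO, a difference of 0.28 (pooled SD 0.135, exact two-sided permutation p = 0.333). The same difference was 0.33 for intergenic peaks outside H4K20me1. Median GC content was 46.4% within 1 kb and 45.7% from 5 to 10 kb, and below 45% GC the difference among members was 0.28.

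**Figure D3:**
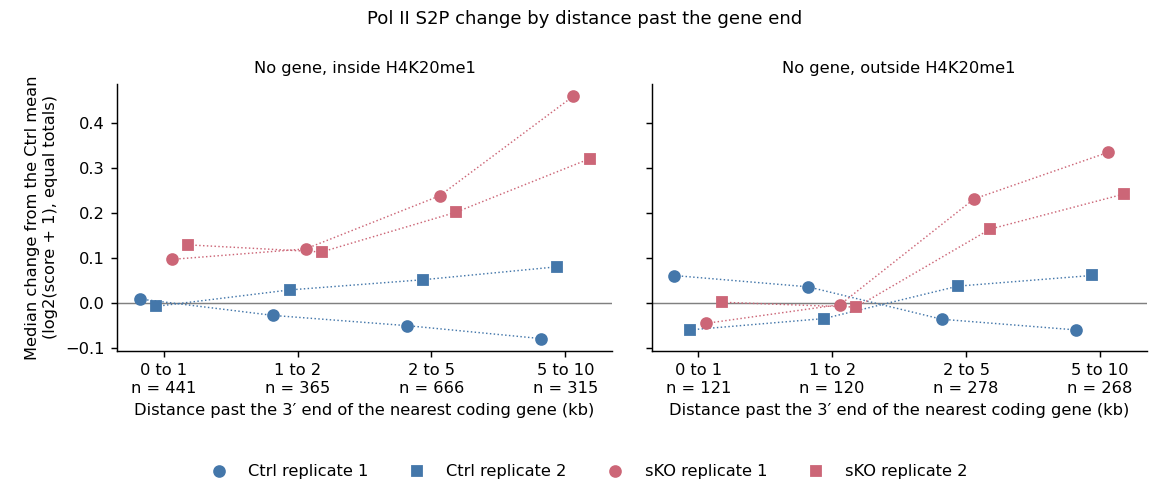
Median change of Pol II S2P from the Ctrl mean (log2(score + 1), library totals set equal) against the distance past the 3′ end of the nearest protein-coding gene in kb, inside (left) and outside (right) H4K20me1; each point is a library and n is the number of tested peaks. Both sKO libraries are highest at 5 to 10 kb, and inside H4K20me1 they go from 0.10 and 0.13 to 0.46 and 0.32. The Ctrl libraries mirror each other around 0 by construction, and inside H4K20me1 they go from 0.01 and -0.01 to -0.08 and 0.08.

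The score past the gene end was also set against that of the gene itself. For 1037 protein-coding genes with members past their 3′ end and a summed mean score over 50 in both parts, the score past the end was divided by the score of the gene's own peaks. The median of that ratio was 0.633 in Ctrl and 0.730 in sKO. In log2 units the median change of the ratio was -0.02 and 0.02 in Ctrl versus 0.24 and 0.18 in sKO, a difference of 0.21 (pooled SD 0.037, exact two-sided permutation p = 0.333), and it was above 0 in 752 of the 1037 genes. For 454 genes with such peaks outside H4K20me1 the difference was 0.26. The ratio is of scores summed over peaks of unequal length and is no measure of how many polymerases run on.

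The 10 members with the highest scores were long, from 4789 to 8492 bases, and 8 of them began within 10 kb past the 3′ end of their nearest protein-coding gene. All 10 had a log2 fold change above 0 on the deposited scale, from 0.04 to 0.72, and 9 of 10 on equal totals, where limma called 1. The highest, chr15:36761677-36770168, lay 602 bases past Ywhaz, which encodes the adaptor protein 14-3-3 zeta. Its score was 1483 and 2268 in Ctrl versus 3383 and 2009 in sKO. The genotypes overlapped there, and on equal totals the log2 fold change was 0.37 ± 0.12 (SE), with a limma adjusted p of 0.0977, short of the limit of 0.5. Only part of it lay in H4K20me1, a peak of 2200 bases.

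The called one was chr18:61591394-61598808, 1333 bases past Csnk1a1, the gene of casein kinase 1 alpha. It scored 1327 and 1996 in Ctrl versus 3386 and 2136 in sKO, with both sKO libraries above both Ctrl libraries. On equal totals it rose by 0.58 ± 0.12 in log2 units (SE, limma adjusted p = 0.00177), a call that was not made on the deposited scale. The peak past Slc44a2, a choline transporter-like gene, at chr9:21356730-21361921, scored 754 and 1163 in Ctrl versus 1870 and 1091 in sKO, which overlap. Its log2 fold change on equal totals was 0.47 ± 0.13 (SE, limma adjusted p = 0.0357), below the limit of size.

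The other 7 overlapped between genotypes on the deposited scale. The peak past Eef1g, a subunit of translation elongation factor 1, at chr19:8980575-8985363 scored 1704 and 2117 in Ctrl versus 2433 and 1575 in sKO, and its log2 fold change of 0.04 turned to -0.10 on equal totals. The peak past Rps19, a protein of the small ribosomal subunit, at chr7:24890991-24895817 scored 1221 and 1314 in Ctrl versus 2042 and 1227 in sKO. The peak past Pabpc1, the cytoplasmic poly(A)-binding protein, at chr15:36587255-36593620 scored 875 and 1221 in Ctrl versus 1735 and 1198 in sKO. In all 3 the genotypes overlapped on the deposited scale. The peak at chr2:162937943-162943467 ended 5 bases before L3mbtl1 and also lay 822 bases past Srsf6, a splicing factor of the SR family, and it overlapped the RefSeq model of L3mbtl1. It scored 1027 and 1438 in Ctrl versus 2043 and 1361 in sKO.

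The peak 3152 bases past Rbpj, the DNA-binding effector of Notch signalling, at chr5:53660514-53667183 scored 832 and 1301 in Ctrl versus 1833 and 1229 in sKO, and its log2 fold change on equal totals was 0.39 ± 0.13 (SE, limma adjusted p = 0.0985). The peak past Bcar1, an adaptor of focal adhesions, at chr8:111700527-111707086 scored 940 and 1261 in Ctrl versus 1895 and 1187 in sKO. The third highest, chr6:31048808-31054420, was 89730 bases from the nearest coding gene and 8240 bases from the microRNA gene Mir29a. It scored 1558 and 1963 in Ctrl versus 2525 and 1881 in sKO, which overlap.

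The 5 called members with the largest rise were much shorter and lower, from 609 to 1244 bases. Except at the one past Tgfb1i1, their Ctrl means were below 50, from 39.5 to 49.5 on the deposited scale. Those peaks passed the filter on the mean score only through their sKO signal. The peak at chr9:90078325-90079002, 2236 bases past Ctsh, the gene of the lysosomal protease cathepsin H, scored 38 and 41 in Ctrl versus 230 and 128 in sKO. It rose by 2.09 ± 0.42 in log2 units (SE, limma adjusted p = 0.00787). Near Fxyd4, of the family that regulates the sodium pump, the peak at chr6:117937898-117938506 scored 28 and 53 in Ctrl versus 193 and 112 in sKO, a change of 1.90 ± 0.43 in log2 units (SE, limma adjusted p = 0.0445). In both the sKO libraries stood far above the Ctrl libraries.

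The peak at chr7:128259338-128260426, 3639 bases past Tgfb1i1, which encodes the focal adhesion adaptor Hic-5, scored 37 and 107 in Ctrl versus 256 and 199 in sKO, a change of 1.82 ± 0.40 in log2 units (SE, limma adjusted p = 0.0438). The peak at chr16:17060835-17061626, 8070 bases before Ypel1, scored 39 and 56 in Ctrl versus 233 and 120 in sKO, a change of 1.82 ± 0.42 in log2 units (SE, limma adjusted p = 0.0445). The peak at chr2:144236058-144237301, 12822 bases past Snx5, a sorting nexin, scored 56 and 43 in Ctrl versus 329 and 81 in sKO, a change of 1.72 ± 0.41 in log2 units (SE, limma adjusted p = 0.0851). The groups did not overlap in any of the 3, and the Snx5 peak rested most on sKO replicate 1: its log2 fold change was 0.71 without that library. The change at the Tgfb1i1 peak was 1.07 without Ctrl replicate 1. None of these 5 calls held without Ctrl replicate 1 or without sKO replicate 1 on the deposited scale, the one near Tgfb1i1 alone held without Ctrl replicate 2, and all 5 held on equal totals. All 6 members called on the deposited scale were also called higher on equal totals.

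On equal totals 2 further rises were named by the rule. The peak 10235 bases past Hnrnpc, the gene of a protein that binds nascent RNA, at chr14:52062468-52063142 scored 8 and 60 in Ctrl versus 175 and 65 in sKO. Its log2 fold change on equal totals was 2.07 ± 0.42 (SE, limma adjusted p = 0.00133), with 1 Ctrl library near 0. The peak 4560 bases past the zinc finger gene Zfp719, at chr7:43597795-43598280, scored 14 and 35 in Ctrl versus 117 and 72 in sKO, and its log2 fold change on equal totals was 1.86 ± 0.41 (SE, limma adjusted p = 0.00342).

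The 3 named falls were smaller, and none was called on the deposited scale. The peak 602 bases past Hist1h4k, a replication-dependent histone H4 gene, at chr13:21748843-21749592 scored 104 and 84 in Ctrl versus 39 and 49 in sKO, and on equal totals it fell by 1.22 ± 0.32 on the log2 scale (SE, limma adjusted p = 0.021). Histone genes have near-identical copies in this cluster, so reads there can be hard to place. The peak 679 bases past Vgll2, a partner of TEAD factors in skeletal muscle, at chr10:52029150-52029973 scored 110 and 121 in Ctrl versus 92 and 44 in sKO. It fell by 0.99 ± 0.27 on the log2 scale on equal totals (SE, limma adjusted p = 0.0267). The peak past Dand5, a secreted antagonist of Nodal, at chr8:84812710-84813696 scored 133 and 178 in Ctrl versus 90 and 82 in sKO, and fell by 0.97 ± 0.24 on the log2 scale on equal totals (SE, limma adjusted p = 0.0101). The Vgll2 peak overlapped H4K20me1 only at its edge, as the H4K20me1 peak ended at base 52029199. The H4K20me1 peaks of these 3 went from 301 and 412 to 1443 and 1688, from 43 and 56 to 308 and 379, and from 46 and 65 to 133 and 90.

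**Figure D4:**
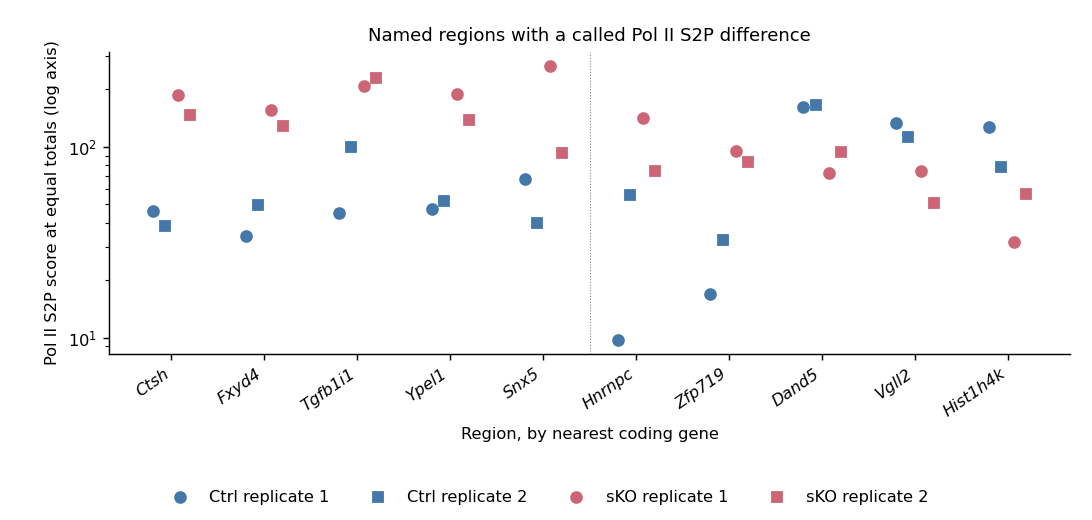
Pol II S2P score at equal library totals (log axis) of the 10 named regions with a called difference, by nearest protein-coding gene; points are libraries. Left of the dotted line are the 5 regions called higher on the deposited scale, and right of it 5 regions called on equal totals only, where Hnrnpc and Zfp719 are higher and Dand5, Vgll2 and Hist1h4k lower in sKO.

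The peaks near muscle regulators and immediate early genes were few, too few to read a share from. Of 30 genes of the myogenic programme and of satellite cells, 20 had a member within 100 kb of the annotated start, with 69 members in all, counted once for each gene. On equal totals limma called 0 of 29 tested in either direction, beside 2.49% higher and 1.2% lower over all tested peaks. An unadjusted p below 0.05 was found for 3 (higher) and 5 (lower), against 1737 and 1551 of all 22340 tested peaks. Of the 29, 13 had a log2 fold change above 0. Of 14 immediate early genes, which answer within minutes to stimuli, 10 had a member in that range. Of 26 tested there, 2 were called higher and 0 lower on equal totals, both near Fosl2, beside the same 2.49% and 1.2%, and 13 were above 0.

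Among single peaks of these lists, chr7:46349978-46350747 lay 25727 bases before the start of Myod1, the master regulator of the myoblast, and scored 186 and 211 in Ctrl versus 231 and 185 in sKO. The H4K20me1 peak around it went from 10 and 17 to 160 and 166. The peak 761 bases past Myog, the regulator of differentiation, at chr1:134293309-134295252 scored 282 and 338 in Ctrl versus 521 and 249 in sKO. In both the Pol II S2P values of the genotypes overlapped. The peak 2508 bases past Fosl2, which encodes a subunit of AP-1, at chr5:32160350-32161479 scored 140 and 197 in Ctrl versus 364 and 229 in sKO, and rose by a log2 fold change of 0.65 ± 0.19 on equal totals (SE, limma adjusted p = 0.0395).

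Near genes of the Notch pathway the values went both ways. The peak at chr2:26531751-26532639, 15088 bases before the start of the receptor gene Notch1, scored 134 and 178 in Ctrl versus 284 and 187 in sKO. The peak at chr4:123227645-123228852, 4704 bases before the start of Heyl, a transcriptional repressor downstream of Notch, scored 177 and 214 in Ctrl versus 192 and 128 in sKO. Neither passed the test on equal totals (limma adjusted p = 0.272 and 0.268). The 12 peaks of both lists that the rule named ranged from -0.45 to 0.65 on equal totals, and the one past Fosl2 was the single one called.

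Nearly all H4K20me1 peaks rose on the deposited scale, those that held intergenic Pol II S2P included. Of 3388 tested, 3012 rose and 0 fell on the deposited scale by limma, where 90.1% of all autosomal H4K20me1 peaks were called higher and 0.00244% lower. Their library medians on log2(score + 1) were 8.47 and 8.79 in Ctrl versus 9.71 and 9.83 in sKO (exact two-sided permutation p = 0.333, the smallest possible), with a median log2 fold change of 1.13. Against all other H4K20me1 peaks the change differed by -0.02 (Ctrl 0.04 and -0.04, sKO -0.02 and -0.02, exact permutation p = 1). On equal totals 983 of 3373 were called higher and 306 lower, where 22.5% of all were called higher and 4.42% lower. The shares among the holding peaks were 29.1% and 9.07%. Of the autosomal H4K20me1 score, the holding peaks had 18.8% and 18.3% in Ctrl versus 17.0% and 16.8% in sKO, a difference of -1.67 percentage points (exact permutation p = 0.333, the smallest possible), so their share went down while the Pol II S2P share of the members went up.

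The number of Pol II S2P peaks held went with the H4K20me1 change. H4K20me1 peaks with 5 or more members had a median of 27.4 and 34.9 per kb in Ctrl versus 50.6 and 54.5 in sKO. H4K20me1 peaks with 1 member had 19.2 and 24.2 per kb in Ctrl versus 50.4 and 54.4 in sKO. The sKO levels thus lay close together where the Ctrl levels did not. The change with 5 or more members was lower than that with 1 by 0.53 on the log2 scale (Ctrl 0.00 and 0.00, sKO -0.52 and -0.54, exact permutation p = 0.333), and lower by 0.29 among H4K20me1 peaks of 20 to 40 kb. Length moved with the number, at a median of 12800 bases with 1 member and 36600 bases with 5 or more, and its part in the difference was tested only in that length class.

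**Figure D5:**
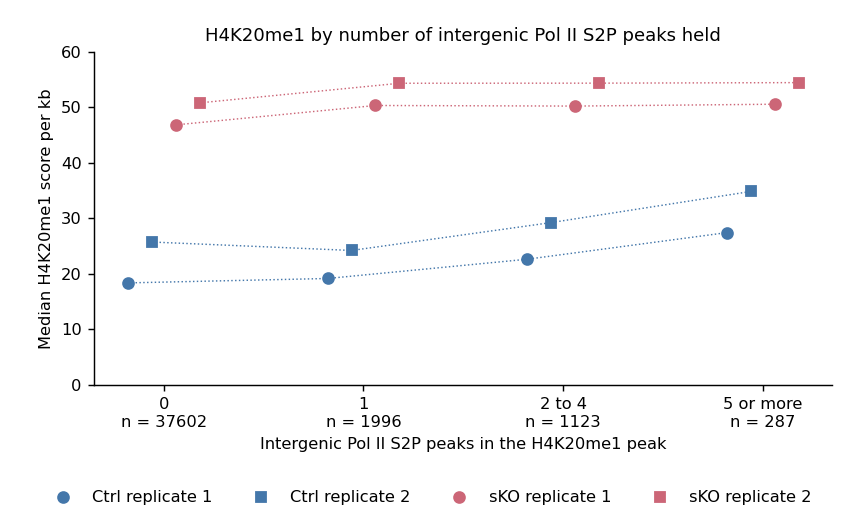
Median H4K20me1 score per kb in each library (y axis) of autosomal H4K20me1 peaks by the number of intergenic Pol II S2P peaks they hold (x axis); points are libraries and n is the number of H4K20me1 peaks. The Ctrl libraries climb from 19.2 and 24.2 with 1 peak to 27.4 and 34.9 with 5 or more, while the sKO libraries stay between 50.2 and 54.5 over the same classes.

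The 3 H4K20me1 peaks with the most members differed in their H4K20me1 values. The 78400 bases at chr15:103143200-103221599, listed with Cbx5, the gene of heterochromatin protein 1 alpha, held 22 members. Their summed Pol II S2P was 1372 and 1733 in Ctrl versus 1973 and 1223 in sKO, which overlap, while H4K20me1 rose from 1513 and 2103 to 4122 and 4338 (log2 fold change 1.24 ± 0.28 SE, limma adjusted p = 3.31e-05). The third highest of all members, 8240 bases from Mir29a, was among the 21 held by the 31000 bases at chr6:31049000-31079999. H4K20me1 there was 1025 and 1302 in Ctrl versus 1274 and 1276 in sKO, or 0.14 in log2 units, which was not called (limma adjusted p = 0.605). The 77200 bases at chr4:137285800-137362999, over Cdc42, a small GTPase of the cytoskeleton, held 13 members. H4K20me1 there was 3059 and 3785 in Ctrl versus 3598 and 3845 in sKO, and was not called (limma adjusted p = 0.662), and the members summed to 876 and 1263 in Ctrl versus 1747 and 1042 in sKO.

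Across the members, the change in Pol II S2P was larger where H4K20me1 was high in Ctrl cells. In 4 equal groups by the H4K20me1 score per kb of the holding peak in Ctrl, the median log2 fold change of Pol II S2P on equal totals was 0.01, 0.14, 0.20 and 0.25 from the lowest to the highest. In the same order 14, 55, 43 and 66 members of 698 each were called higher (2.01%, 7.88%, 6.16% and 9.46%), beside 2.49% of all tested peaks. The highest group exceeded the lowest by 0.23 (Ctrl -0.06 and 0.06, sKO 0.28 and 0.17, exact permutation p = 0.333, the smallest possible) on the deposited values. Position moved with it, since 39.8% of the lowest group and 74.4% of the highest lay past a 3′ end, and so did GC content, at 50.3% and 45.5%. Among members past a 3′ end the difference was 0.20, and among members below 45% GC 0.19. The change of H4K20me1 itself went the other way. The Spearman rho between the log2 fold changes of Pol II S2P and of H4K20me1 in the holding peak was -0.23 over 2802 members, which share holding peaks, libraries and base composition. The Ctrl H4K20me1 level is the baseline of that H4K20me1 change, so this rho is not an observation separate from the trend above. The rho of the Pol II S2P change with GC content was -0.29 over 2813 members.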

How the data were processed

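CUT&RUN was analysed for H4K20me1 and Pol II S2P in cultured MuSCs. Per their methods, the authors trimmed reads with Trimmomatic 0.39, aligned them uniquely to mm10 (GRCm38) with STAR 2.7.3a and removed duplicates with Picard 2.21.7. The deposited value is a score, described by the authors as spike-in normalised coverage, in union peaks shared by the 4 libraries of an antibody. Which caller gave which peak set is not given in the sources used here. Read totals per library are stated by the study, but the scores are not in reads, so no counting interval is given. Starts are printed as deposited and may be off by 1 base. The spike-in scale could not be checked.

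Members were found by interval overlap, and the members, lists and tests were chosen with earlier results of these data known. Regions were named as the 10 highest-scoring tested members, up to 5 called in each direction, up to 3 more in each direction on equal totals, the 3 H4K20me1 peaks with most members, and the highest member near each listed gene, at most 12. Autosomal peaks with a mean score over 50 were fitted with limma 3.58.1 (eBayes with trend, R 4.3.3) on log2(score + 1), which understates changes of low peaks, and adjusted by Benjamini-Hochberg over all peaks. Single values per library were compared with exact permutation tests (scipy 1.17.1). Genes came from GENCODE M21, sequence and RefSeq genes from GRCm38.p6. Within-class comparisons by place, distance, GC content, H4K20me1 level and length were added after the data were seen. The fit was checked on simulated scores with known changes. The sequence of 1 further named region is not reported here.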

Additional observations from a re-analysis of the deposited data

Results flagged for a closer look

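The X chromosome was left out of every comparison above, and the same rule was applied to it on its own. Of 620 Pol II S2P peaks on X, 126 were listed with no gene and overlapped H4K20me1. They held 20.6% and 22.4% of the X score in Ctrl versus 25.8% and 25.01% in sKO, a difference of 3.93 percentage points (exact two-sided permutation p = 0.333, the smallest possible). The item stands here because each sKO library exceeded each Ctrl library in data that no comparison used. The X peaks were scored in the same libraries as the autosomes, so they are not an independent comparison. Of the 126, 43 had a mean score over 50.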

How the results depend on the processing

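Most of the values kept their direction, and the number of calls depended on the scale. The 6 Pol II S2P peaks called higher became 178 on equal totals, 170 with quantile normalisation, 2 without a filter on low scores, 14 without the limma trend and 0 to 46 when 1 library was left out, and the 0 called lower became 7 on equal totals and 3 with quantile normalisation. On equal totals the 178 ranged from 42 to 241 and the 7 from 0 to 17 when 1 library was left out. Of the H4K20me1 peaks, the 3012 called higher became 983 on equal totals, 669 with quantile normalisation, 1487 at least 3 kb from every annotated gene, where fewer were tested, and 1472 to 3241 when 1 library was left out. The 0 called lower became 306, 256 with quantile normalisation and 0 to 1 when 1 library was left out. Their median log2 fold change of 1.131 became 0.15 on equal totals and 0.11 with quantile normalisation, and ranged from 0.94 to 1.31 when 1 library was left out. Against other H4K20me1 peaks, their change of -0.02 became 0.053 at least 3 kb from every annotated gene and ranged from -0.072 to 0.017 when 1 library was left out. Members at least 3 kb from every annotated gene differed in share by 0.698 percentage points, and from gene-listed peaks inside H4K20me1 by 0.19. The cause of these shifts was not tested, other than the smaller sets.

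The log2 fold change turned to -0.11 near Ephx3, -0.10 past Eef1g, -0.078 before Myod1 and -0.10 before Junb on equal totals, and to -0.036, -0.20, -0.013 and -0.030 with quantile normalisation. When 1 library was left out, peaks that changed sign ranged from -0.067 to 0.13 near Ephx3, -0.046 to 0.52 near Hspa9, -0.27 to 0.36 near Eef1g, -0.31 to 0.75 near Myog, -0.12 to 0.50 near Pigt, -0.14 to 0.028 near Tnnt3, -0.046 to 0.69 near Rps19, -0.10 to 0.22 near Myod1 and -0.24 to 0.33 near Junb.

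With the replicate number as a replicate block, 0 of the 6 Pol II S2P calls were made, 3006 H4K20me1 peaks were called higher, and on equal totals 167 members were called higher and 5 lower. The deviations of same-numbered libraries correlated at -0.0445 for Pol II S2P and 0.0345 for H4K20me1. So few libraries cannot show whether same-numbered samples were prepared together, and the labels give only a number. With 2 libraries a genotype no single value can pass 0.05 by permutation, the scores are not in reads, and members under the mean score of 50 were not tested.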
